A study of Mus musculus with 16 samples.

Results

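The genes examined here are 44 genes of DNA replication, taken by name from a count table of 25611 entries. Each name was present once, and all 44 passed the filter on low counts. The counts came from RNA-Seq of thyroid glands of 16 mice, which were female by the study's account. WT mice on the 2 diets form the groups WT(ND) and WT(LID), *Glis3*-Pax8Cre mice the groups *Glis3*-Pax8Cre(ND) and *Glis3*-Pax8Cre(LID), and each group has 4 mice. The mice were 4 weeks old in the study's methods and 1 month old in the sample labels. WT mice carried no listed allele. The labels give C57BL/6 as the strain of all 16 mice but B6;129 in the genotype of the *Glis3*-Pax8Cre mice, so a difference in background and the genotype cannot be told apart. *Glis3*-Pax8Cre mice carry the alleles Glis3<tm2Amj> and Pax8<tm1.1(cre)Mbu>, and lack exon 5 of *Glis3*, which encodes a Krüppel-like zinc finger transcription factor, in cells that express Cre from the *Pax8* locus, chiefly the thyroid follicular cells, so other cells of the gland keep the gene. ND was the NIH-31 normal diet and LID a low-iodine diet (TD.95125) given for 6 days, which is used to raise serum TSH and so to stimulate the gland.

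A cell copies its genome by licensing replication origins in G1, firing them in S phase, and synthesising DNA behind a helicase with polymerases that are held on the template by a sliding clamp. The enzymes that make deoxynucleotides and the factors that restore chromatin and DNA methylation behind the fork are produced in the same window, and the genes for most of these proteins are transcribed at the G1/S transition under E2F transcription factors. Thyroid follicular cells are largely quiescent in the adult and enter the cycle under prolonged stimulation by TSH.

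Values below are CPM, counts scaled to a common library size with TMM factors, in the order of replicates 1 to 4 of each group. Differences are log2 fold changes with their SE from edgeR's quasi-likelihood test on the 16 mice, and a gene was called at a Benjamini-Hochberg adjusted p under 0.05 over the 16630 genes tested. Between 13892352 and 461077969 read pairs were counted per mouse. *Glis3* was at 79.2, 85.8, 81.8 and 45.2 CPM in WT(ND), 105, 93.0, 101 and 85.8 in *Glis3*-Pax8Cre(ND), 125, 174, 165 and 161 in WT(LID) and 150, 120, 204 and 185 in *Glis3*-Pax8Cre(LID), and was called in neither genotype comparison (adjusted p = 0.157 on the ND and 0.81 on the LID). Since a count over the whole gene includes the exons that were not deleted, it does not check the knockout. The 8 markers of follicular cells had counts in every mouse, with a summed level from 97880 to 331400 CPM.

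1 library stood apart in these genes. In *Glis3*-Pax8Cre(ND) replicate 4, 41 of the 44 replication genes were at the highest level of their group, against 35.7% of all genes tested. The level in this mouse was over 1.5 times the mean of the other 3 mice of its group for 35 replication genes, against 16.2% of all genes, with a median ratio of 1.87 against 0.968 for all genes. The largest ratio was 8.32, for *Orc1*. The sum of 12 thymocyte markers in it was 3180 CPM, with *Rag1* at 1120 CPM and *Cd8a* at 410 CPM, while in the other 3 mice of its group the sum was 12.4 to 14.9 CPM. Thymocyte markers also summed to 187 CPM in WT(ND) replicate 1, 262 CPM in WT(LID) replicate 3 and 394 CPM in *Glis3*-Pax8Cre(LID) replicate 4, and to 51.9 CPM or less in the other mice. All 12 markers were in the table, and 8 had counts in every mouse. The part of thymic RNA in the level of the replication genes was not tested, but each comparison is given with and without *Glis3*-Pax8Cre(ND) replicate 4.

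**Figure D1:**
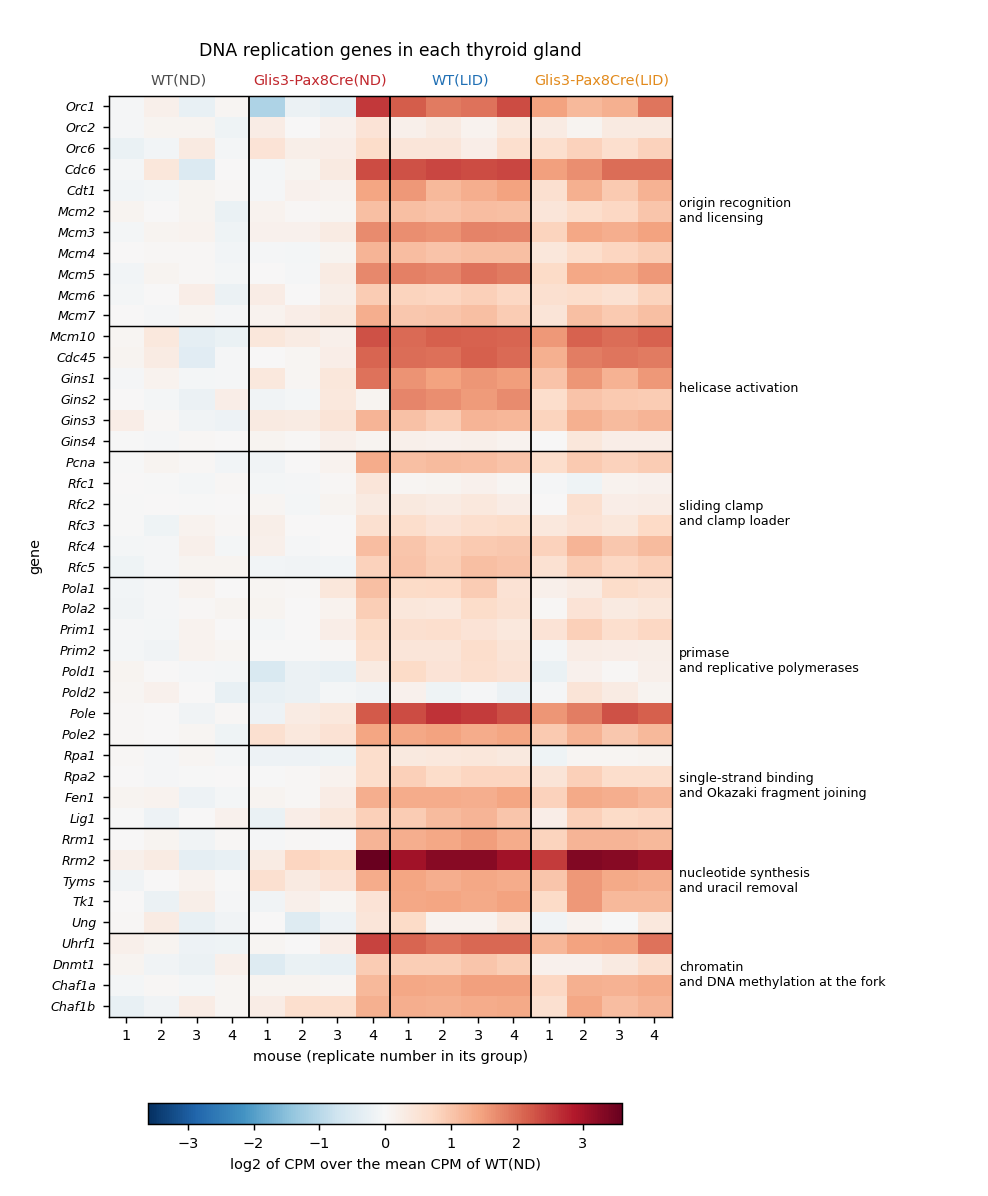
Heat map of the 44 DNA replication genes (rows, by role) in the 16 mice (columns, by group and replicate number), coloured by the log2 of the CPM over the mean CPM of WT(ND). The 4 WT(LID) columns are red for nearly all genes, and within *Glis3*-Pax8Cre(ND) the column of replicate 4, the highest of its group for 41 genes, stands out from the other 3.

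The first comparison asks how the LID changed these genes in WT thyroid glands. Of the 44 replication genes, 38 were higher in WT(LID) than in WT(ND), or 86.4% against 20.9% of all genes tested. The count of genes called lower was 0, against 20.8% of all genes, with 0 lower at an unadjusted p under 0.05 and 0 by DESeq2. The median log2 fold change was 1.08 over the 44 genes and -0.03 over all genes. Without *Glis3*-Pax8Cre(ND) replicate 4, 40 genes were higher, against 24% of all genes, and 0 were lower, against 23.2%, with 0 lower at an unadjusted p under 0.05. In 41 of the 44 genes, every WT(LID) mouse was above every WT(ND) mouse, which held for 23.7% of all genes. The 6 genes that were not called were *Orc2*, *Gins4*, *Rfc1*, *Pold2*, *Rpa1* and *Ung*. The summed level of the 44 genes was 722 to 748 CPM in WT(ND) and 1456 to 1525 CPM in WT(LID). In whole glands, more cells in S phase and more RNA of these genes per cell cannot be told apart. Markers of other cell types moved as well, in both directions. The 5 endothelial markers, none at 0 in any mouse, were all called higher and summed to 488 to 620 CPM in WT(ND) and 1316 to 1488 CPM in WT(LID). Of the 5 fibroblast markers, none at 0 in any mouse, 1 was called higher and 2 lower, with a median log2 fold change of -0.39. Their sum was 442 to 639 CPM in WT(ND) and 656 to 763 CPM in WT(LID), and the mean of *Col1a1* within it was 133 and 468 CPM. Of the 5 adipocyte and 3 parathyroid markers, 4 and 3 were called lower. Their part in the rise of the replication genes was not tested.

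Among the 11 genes of origin recognition and licensing, 10 rose in WT(LID), with a median log2 fold change of 1.08. *Cdc6*, which with CDT1 loads the MCM helicase onto origins, rose most (chr11:98907889-98923942 in mm10). *Cdc6* was at 2.59, 3.57, 1.92 and 2.76 CPM in WT(ND), 2.57, 2.92, 3.41 and 13.7 in *Glis3*-Pax8Cre(ND), 13.3, 14.4, 13.7 and 14.5 in WT(LID) and 7.48, 8.67, 10.8 and 10.95 in *Glis3*-Pax8Cre(LID). All WT(LID) mice lay far above all WT(ND) mice, and *Glis3*-Pax8Cre(ND) replicate 4 lay among the WT(LID) values. The difference between WT(LID) and WT(ND) was 5.15-fold (log2 fold change 2.36 ± 0.44 (SE), adjusted p = 0.000616). *Orc2*, a subunit of the origin recognition complex, changed least and was not called. Its levels were 21.4, 23.5, 23.8 and 19.9 CPM in WT(ND), 26.9, 22.4, 24.6 and 31.4 in *Glis3*-Pax8Cre(ND), 25.04, 27.7, 24.3 and 28.8 in WT(LID) and 27.4, 23.9, 27.99 and 28 in *Glis3*-Pax8Cre(LID). Its WT(LID) mice were all above its WT(ND) mice, but by little (log2 fold change 0.26 ± 0.10 (SE), adjusted p = 0.0566). It was called in the fit without *Glis3*-Pax8Cre(ND) replicate 4 (adjusted p = 0.0178). *Mcm2*, 1 of the 6 subunits of the MCM2-7 ring that unwinds DNA (chr6:88883474-88898780), was at 33.2, 30.9, 32.98 and 26.3 CPM in WT(ND), 33.7, 31.7, 32.6 and 65.5 in *Glis3*-Pax8Cre(ND), 64.7, 62.8, 66.4 and 65.1 in WT(LID) and 42.1, 47.4, 52.1 and 61.04 in *Glis3*-Pax8Cre(LID). The WT(LID) values lay close together and well above WT(ND) (log2 fold change 1.07 ± 0.19 (SE), adjusted p = 0.000467). The other ring subunits also rose, from 0.80 for *Mcm6* to 1.85 for *Mcm5* on the log2 scale. *Orc1*, the largest subunit of the origin recognition complex, rose by 2.11 ± 0.57, and *Orc6* by 0.43 ± 0.13, while *Cdt1* rose by 1.38 ± 0.27.

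Of the 6 genes that turn the loaded ring into an active helicase, 5 rose, with the highest median of the 7 roles, 1.61 on the log2 scale. *Mcm10*, which acts when the origin fires (chr2:4990724-5012791), was at 2.58, 3.18, 1.96 and 2.09 CPM in WT(ND), 3.26, 3, 2.79 and 12.02 in *Glis3*-Pax8Cre(ND), 10.1, 10.8, 10.6 and 10.6 in WT(LID) and 7.21, 10.6, 9.89 and 10.8 in *Glis3*-Pax8Cre(LID). The WT(LID) mice were tightly grouped, and *Glis3*-Pax8Cre(ND) replicate 4 exceeded them all. *Mcm10* was 4.29-fold higher in WT(LID) than in WT(ND) (log2 fold change 2.10 ± 0.39 (SE), adjusted p = 0.000594). *Cdc45*, the partner of MCM and GINS in the active helicase, rose by a log2 fold change of 2.05 ± 0.38. The 4 GINS subunits, which form a single complex, differed among themselves: *Gins2* rose by 1.67 ± 0.13, *Gins1* by 1.55 ± 0.32 and *Gins3* by 1.11 ± 0.19, but *Gins4* was not called. *Gins4* was at 18.1, 17.6, 18.9 and 18.3 CPM in WT(ND), 19.6, 18.8, 20.9 and 19.5 in *Glis3*-Pax8Cre(ND), 20.8, 20.1, 20.6 and 20.01 in WT(LID) and 18.3, 24.4, 21.4 and 21.6 in *Glis3*-Pax8Cre(LID). All 16 values lay within a narrow range, although its WT(LID) mice were above its WT(ND) mice (log2 fold change 0.16 ± 0.08 (SE), adjusted p = 0.116).

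The sliding clamp and its loader had 5 of 6 genes higher in WT(LID). *Pcna*, the clamp that holds the polymerases on DNA (chr2:132249286-132253180), was at 40.3, 43.5, 42.1 and 38.2 CPM in WT(ND), 37.5, 41.3, 44.7 and 104 in *Glis3*-Pax8Cre(ND), 86.9, 89.98, 89.1 and 83.2 in WT(LID) and 63.1, 78.3, 73.5 and 76.6 in *Glis3*-Pax8Cre(LID). WT(LID) was 2.13-fold above WT(ND) with no overlap (log2 fold change 1.09 ± 0.24 (SE), adjusted p = 0.00223). *Rfc1*, the large subunit of the RFC clamp loader, was at 46.3, 45.5, 43.7 and 46.7 CPM in WT(ND), 43.4, 44.2, 47.2 and 61.3 in *Glis3*-Pax8Cre(ND), 47.6, 49.1, 50.8 and 47.6 in WT(LID) and 44.4, 40.8, 49.5 and 50.6 in *Glis3*-Pax8Cre(LID). Its groups lay close together and the difference was not called (log2 fold change 0.10 ± 0.10 (SE), adjusted p = 0.448). The small subunits *Rfc2*, *Rfc3*, *Rfc4* and *Rfc5* rose by 0.32, 0.60, 0.94 and 1.01 on the log2 scale.

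The primase and replicative polymerase genes ranged from -0.05 to 2.45 on the log2 scale, and 7 of 8 rose. *Pole*, the catalytic subunit of the leading strand polymerase (chr5:110286319-110337453), was at 4.01, 3.96, 3.55 and 4.03 CPM in WT(ND), 3.45, 4.78, 5.08 and 17.98 in *Glis3*-Pax8Cre(ND), 19.95, 23.5, 22.3 and 19.2 in WT(LID) and 11.7, 13.96, 19.1 and 17.2 in *Glis3*-Pax8Cre(LID). It was 5.46-fold higher in WT(LID), and no mouse of one WT group reached the other (log2 fold change 2.45 ± 0.40 (SE), adjusted p = 0.000222). *Pold2*, the accessory subunit of the lagging strand polymerase, was at 23.3, 24.4, 22.1 and 18.5 CPM in WT(ND), 18.4, 19.2, 20.95 and 20.4 in *Glis3*-Pax8Cre(ND), 24.6, 19.97, 21.6 and 19.2 in WT(LID) and 21.5, 30.4, 26.9 and 23.5 in *Glis3*-Pax8Cre(LID). The WT groups overlapped in full (log2 fold change -0.05 ± 0.12 (SE), adjusted p = 0.784), and it was the single gene of the 44 with a negative fold change. Its partner *Pold1*, the catalytic subunit of the same polymerase, was at 27.2, 25.4, 24.4 and 24.3 CPM in WT(ND), 17.2, 22.1, 21.2 and 32.01 in *Glis3*-Pax8Cre(ND), 40.6, 35.5, 38.7 and 36.04 in WT(LID) and 21.3, 28.2, 26.2 and 28.8 in *Glis3*-Pax8Cre(LID). *Pold1* rose in WT(LID) without overlap (log2 fold change 0.57 ± 0.15 (SE), adjusted p = 0.00518). The small subunit of the leading strand polymerase, *Pole2*, was at 2.59, 2.51, 2.64 and 2.27 CPM in WT(ND), 3.76, 3.23, 3.62 and 6.64 in *Glis3*-Pax8Cre(ND), 6.58, 6.83, 6.29 and 6.68 in WT(LID) and 4.85, 5.91, 4.93 and 5.57 in *Glis3*-Pax8Cre(LID). It rose in WT(LID) as well (log2 fold change 1.40 ± 0.18 (SE), adjusted p = 2.79e-05). *Pola1* and *Pola2*, of the polymerase that starts each strand, and *Prim1* and *Prim2*, of its primase, rose by 0.71, 0.50, 0.52 and 0.49 on the log2 scale.

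Of the genes for single-strand binding and Okazaki fragment joining, *Fen1* rose most. *Fen1*, the flap endonuclease that trims the 5′ end of each fragment (chr19:10199132-10203943), was at 9.49, 9.73, 7.84 and 8.43 CPM in WT(ND), 9.47, 9.13, 10.6 and 22.1 in *Glis3*-Pax8Cre(ND), 22.2, 22.4, 21.98 and 23.7 in WT(LID) and 15.9, 22.7, 21.9 and 20.5 in *Glis3*-Pax8Cre(LID). The WT groups were far apart (log2 fold change 1.35 ± 0.23 (SE), adjusted p = 0.000233). *Rpa1*, the large subunit of the single-strand binding protein RPA, was at 48.9, 46.6, 49.9 and 45.3 CPM in WT(ND), 42.2, 41.96, 42.7 and 74.04 in *Glis3*-Pax8Cre(ND), 60.5, 61.5, 63.5 and 60.3 in WT(LID) and 42.8, 49.7, 49.8 and 51.1 in *Glis3*-Pax8Cre(LID). Its WT groups did not overlap, but the difference was not called with all 16 mice (log2 fold change 0.37 ± 0.15 (SE), adjusted p = 0.0540). It was called without *Glis3*-Pax8Cre(ND) replicate 4, whose value was the highest of the 16 (log2 fold change 0.38 ± 0.06 (SE), adjusted p = 0.000140). *Rpa2* and *Lig1*, the ligase that seals the fragments, rose by 0.76 and 1.08 on the log2 scale.

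For nucleotide synthesis, *Rrm2*, the regulated subunit of ribonucleotide reductase (chr12:24708254-24714146), had the largest change of the 44 genes. Its levels were 7.68, 8.36, 5.41 and 5.61 CPM in WT(ND), 8.34, 11.6, 10.9 and 79 in *Glis3*-Pax8Cre(ND), 55.4, 66.1, 65.2 and 54.7 in WT(LID) and 38.7, 67.9, 65.2 and 59.3 in *Glis3*-Pax8Cre(LID). WT(LID) and *Glis3*-Pax8Cre(LID) were both far above WT(ND), and the highest of the 16 values was in *Glis3*-Pax8Cre(ND) replicate 4. *Rrm2* was 8.94-fold higher in WT(LID) than in WT(ND) (log2 fold change 3.16 ± 0.62 (SE), adjusted p = 0.00112). *Tyms*, thymidylate synthase, was at 9.46, 10.4, 11.2 and 10.2 CPM in WT(ND), 15.4, 12.8, 14.5 and 26.1 in *Glis3*-Pax8Cre(ND), 27.8, 25.4, 26.8 and 26.02 in WT(LID) and 20.5, 30.6, 26.8 and 25.4 in *Glis3*-Pax8Cre(LID). It rose without overlap (log2 fold change 1.36 ± 0.18 (SE), adjusted p = 2.69e-05). *Tk1*, the cytosolic thymidine kinase of the salvage pathway (chr11:117815519-117826014), was at 14.3, 12.1, 16.4 and 13.5 CPM in WT(ND), 12.9, 15.9, 14.8 and 19.9 in *Glis3*-Pax8Cre(ND), 37.04, 37.3, 36.2 and 38.5 in WT(LID) and 22.8, 41.9, 31.7 and 31.6 in *Glis3*-Pax8Cre(LID). The WT(LID) mice were again tightly grouped above WT(ND) (log2 fold change 1.41 ± 0.16 (SE), adjusted p = 7.12e-06). *Rrm1*, the catalytic subunit of the reductase, rose by 1.39 ± 0.23 on the log2 scale. *Ung*, the glycosylase that removes uracil from DNA, was at 5.82, 6.95, 4.68 and 5.15 CPM in WT(ND), 5.71, 4.10, 4.99 and 7.62 in *Glis3*-Pax8Cre(ND), 9.15, 6.23, 6.22 and 7.35 in WT(LID) and 5.13, 6.20, 5.62 and 7.29 in *Glis3*-Pax8Cre(LID). Its WT groups overlapped and the difference was not called (log2 fold change 0.36 ± 0.19 (SE), adjusted p = 0.152).

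All 4 genes of chromatin and DNA methylation at the fork rose. *Uhrf1*, which recognises hemimethylated DNA and recruits DNMT1 (chr17:56303337-56323486), was at 16.5, 15.7, 12.98 and 13.2 CPM in WT(ND), 15.2, 14.8, 17.1 and 79.6 in *Glis3*-Pax8Cre(ND), 62.1, 57.1, 61.7 and 61.2 in WT(LID) and 33.4, 39.6, 40.7 and 56.8 in *Glis3*-Pax8Cre(LID). It was 4.14-fold higher in WT(LID) than in WT(ND) (log2 fold change 2.05 ± 0.46 (SE), adjusted p = 0.00272). *Dnmt1*, the maintenance methyltransferase, rose least of the 4 and was at 69.3, 58.7, 55.03 and 73.4 CPM in WT(ND), 46.4, 54.2, 52.96 and 122 in *Glis3*-Pax8Cre(ND), 119, 118, 128 and 119 in WT(LID) and 72.1, 71.1, 79.8 and 96.1 in *Glis3*-Pax8Cre(LID). The WT groups were again apart (log2 fold change 0.91 ± 0.24 (SE), adjusted p = 0.00637). *Chaf1a* and *Chaf1b*, subunits of the chromatin assembly factor that places new histones, rose by 1.43 ± 0.21 and 1.32 ± 0.20 on the log2 scale.

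**Figure D2:**
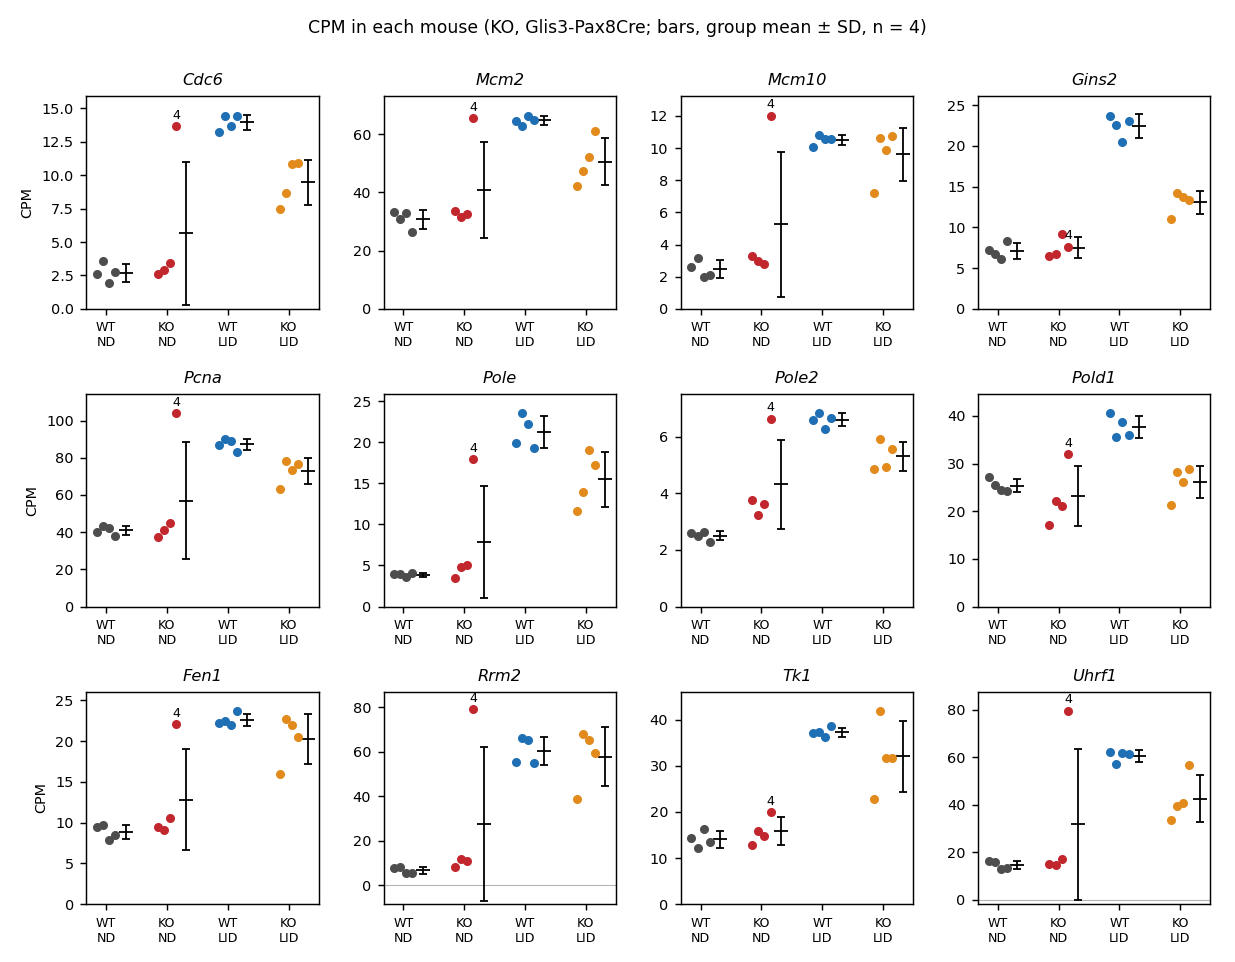
CPM of 12 replication genes in each mouse (points), with the group mean ± SD (bars, n = 4) beside them; KO stands for *Glis3*-Pax8Cre, and the digit 4 marks *Glis3*-Pax8Cre(ND) replicate 4. In 11 panels this mouse lies above the other 3 of its group, and in *Gins2*, at 7.64 CPM, it lies among them.

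Levels were compared between genes as CPM per kilobase of GENCODE exon, using the group means. In WT(ND), *Pcna* had the highest level, 17.1, followed by *Gins4* at 13.5, *Pold2* at 11.6 and *Mcm6* at 10.8. The lowest levels were those of *Orc1* at 0.196, *Mcm10* at 0.319, *Pole* at 0.348 and *Cdc6* at 0.518. The last 4 genes were among the 7 that rose over 4-fold in WT(LID), with *Cdc45*, *Rrm2* and *Uhrf1*, and *Gins4* and *Pold2* were among those not called. The 6 ring subunits, which assemble in equal number, ranged from 3.89 for *Mcm5* to 10.8 for *Mcm6* in WT(ND) and from 9.31 for *Mcm2* to 18.8 for *Mcm6* in WT(LID). In the GINS complex *Gins1*, *Gins2* and *Gins3* were at 1.05, 1.73 and 1.18 in WT(ND). Exon lengths came from another annotation than the one used for counting, and joined the exons of all annotated transcripts of a gene. These levels are therefore approximate, also between subunits of the same complex. The span of 8 of the 44 genes overlapped another gene of the table. *Gins2* shared 118 bases with *Gse1*, *Rfc4* 191 with *Eif4a2*, *Pold2* 69 with *Aebp1*, *Lig1* 1409 with *Zswim9* and *Tk1* 96 with *Afmid*, all on the other strand, and *Mcm7*, *Pold1* and *Dnmt1* held microRNA genes. Counting ignored strand, so reads of overlapping genes could not be told apart there.

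Since 38 of the 44 genes rose, the promoters were searched for 4 E2F-type motifs, TTTGGCGC, TTTCGCGC, TTTCCCGC and TTTGCCGC, on both strands. RefSeq promoter windows (GRCm38.p6) of 300 bases, from 250 before to 50 after the start, were at hand for 37 of the 44 genes. A motif was found in 15 of these 37 genes (40.5%), and in 2.6% of the 27025 genes with a window, or 2.26% of all windows. All 15 genes with a motif and 17 of the 22 without one were among the 38 called in WT(LID). The median log2 fold change was 1.11 in the former and 1.04 in the latter. The CCAAT motif, searched on both strands as well, was in 64.9% of the replication genes and 41.1% of all genes. A match is a description of the sequence and not evidence of binding. The sequences of 4 called genes with a motif near the start, which are Rfc3, Pole2, Mcm7 and Mcm3, are printed from 100 bases before to 30 after the start, in the direction of transcription with the motifs in capitals. These 4 were picked because their motif lay nearest the start, so its position there was fixed by the choice. In other genes with a motif it lay farther off, as in Uhrf1 at bases -185 to -178. The 4 sequences are:
Rfc3, chr5:151651179-151651308, minus strand: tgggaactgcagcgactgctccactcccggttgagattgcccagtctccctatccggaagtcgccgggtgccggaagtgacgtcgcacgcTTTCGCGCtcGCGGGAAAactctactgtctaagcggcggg
Pole2, chr12:69228161-69228290, minus strand: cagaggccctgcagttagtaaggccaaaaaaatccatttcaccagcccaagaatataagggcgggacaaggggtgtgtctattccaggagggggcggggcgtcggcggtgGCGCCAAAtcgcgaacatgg
Mcm7, chr5:138171854-138171983, minus strand: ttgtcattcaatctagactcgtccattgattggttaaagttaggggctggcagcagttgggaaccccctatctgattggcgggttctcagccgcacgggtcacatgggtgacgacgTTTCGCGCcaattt
Mcm3, chr1:20820283-20820412, minus strand: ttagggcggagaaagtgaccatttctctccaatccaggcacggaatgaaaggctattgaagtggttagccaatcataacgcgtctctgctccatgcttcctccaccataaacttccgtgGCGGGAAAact
In Rfc3 a pair of motifs on opposite strands covered bases -10 to -3 and 1 to 8, counted from 1 at the start. In Pole2 the motif covered bases 11 to 18. The nearest motif covered bases 17 to 24 in Mcm7 and 20 to 27 in Mcm3. Outside the printed bases, Mcm7 held a further motif at bases -165 to -158 and Mcm3 at bases 39 to 46. In Orc1, also called, the motif covered bases -27 to -20, at the same distance of 20 bases as in Mcm3, and the tie was settled by alphabetical order. The start of the Mcm3 window lay 99 bases upstream of the start in the count table. The promoter of Mcm6, chosen after the matches were seen because it held the most, had 2 motifs on opposite strands that shared 4 bases, read as 1 run of capitals, and another closer to the start, and is printed from 120 bases before to 30 after the start:
Mcm6, chr1:128359676-128359825, minus strand: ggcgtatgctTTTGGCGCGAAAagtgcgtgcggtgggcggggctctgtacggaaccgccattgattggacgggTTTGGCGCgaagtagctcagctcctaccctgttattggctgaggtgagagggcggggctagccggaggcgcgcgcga

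The second comparison asks whether the LID had the same effect in glands of *Glis3*-Pax8Cre mice. In *Glis3*-Pax8Cre(LID) against *Glis3*-Pax8Cre(ND), 11 of the 44 genes were higher (25% against 13.1% of all genes) and 0 lower (against 12.3%), with 0 lower at an unadjusted p under 0.05 and 0 by DESeq2. The median log2 fold change was 0.40. The 11 genes were *Gins2*, *Rfc4*, *Rfc5*, *Prim1*, *Pold2*, *Rpa2*, *Fen1*, *Rrm1*, *Tyms*, *Tk1* and *Chaf1a*. Without *Glis3*-Pax8Cre(ND) replicate 4, 36 genes were higher (81.8% against 14.6% of all genes) and 0 lower (against 13.8%), with 0 lower at an unadjusted p under 0.05, and the median was 0.67 with all 44 fold changes above 0. The mice did not overlap for 33 of the 44 genes without replicate 4, against 17.3% of all genes. The count also depended on other mice when all of the group was kept: it was 2 without *Glis3*-Pax8Cre(ND) replicate 1 or 2, 4 without *Glis3*-Pax8Cre(ND) replicate 3, 3 without *Glis3*-Pax8Cre(LID) replicate 2, and 6 without *Glis3*-Pax8Cre(LID) replicate 3 or 4. Over all genes, 1747 to 2034 were higher in these fits. Once *Glis3*-Pax8Cre(ND) replicate 4 was left out, leaving out any further mouse gave from 31 to 38 genes higher, against 9.73% to 15.4% of all genes. The summed level of the 44 genes was 735 to 797 CPM in *Glis3*-Pax8Cre(ND) replicates 1 to 3, 1542 CPM in replicate 4 and 1017 to 1349 CPM in *Glis3*-Pax8Cre(LID). The endothelial markers summed to 634 to 889 CPM in *Glis3*-Pax8Cre(ND) and 591 to 754 CPM in *Glis3*-Pax8Cre(LID), which overlap, with 1 of 5 called lower in both fits, and the fibroblast markers summed to 205 to 440 CPM and 265 to 457 CPM, with 1 called higher and 1 lower. Of the 5 macrophage markers 4 were called lower in both fits, with sums of 242 to 286 CPM in *Glis3*-Pax8Cre(ND) and 162 to 224 CPM in *Glis3*-Pax8Cre(LID). The 3 parathyroid markers were all called lower in the 16 mice and 2 in the 15, with sums of 3289 to 5180 CPM and 225 to 2099 CPM. The part of these shifts in the level of the replication genes was not tested.

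All 7 roles had genes called higher in *Glis3*-Pax8Cre(LID) in the 15 mice. Of the 11 licensing genes 10 were called, with *Cdc6* at 3.15-fold (log2 fold change 1.66 ± 0.19 (SE), adjusted p = 1.63e-05). With replicate 4 included, the SE of *Cdc6* was 0.42 and it was not called (log2 fold change 0.73 ± 0.42 (SE), adjusted p = 0.214). Of the helicase activation genes 5 of 6 were called, and *Mcm10* rose 3.19-fold (log2 fold change 1.67 ± 0.17 (SE), adjusted p = 6.90e-06). *Gins2*, which was not raised in replicate 4, had nearly the same difference in both fits (log2 fold change 0.80 ± 0.13 (SE), adjusted p = 0.000439 with 16 mice and 0.79 ± 0.14 with 15). In the clamp and its loader 4 of 6 genes rose, among them *Pcna* (log2 fold change 0.81 ± 0.08 (SE), adjusted p = 6.56e-06). Of the polymerase and primase genes 5 of 8 rose, most of all *Pole*, which was 3.41-fold higher (log2 fold change 1.77 ± 0.17 (SE), adjusted p = 2.33e-06). All 4 genes of single-strand binding and fragment joining were called, *Rpa1* with the smallest difference (log2 fold change 0.19 ± 0.07 (SE), adjusted p = 0.0488). With the 16 mice its fold change was below 0, at -0.06 ± 0.15, and it was not called. *Rrm2* rose 5.52-fold (log2 fold change 2.46 ± 0.21 (SE), adjusted p = 1.24e-06), and *Tk1* was called in both fits (1.01 ± 0.16 and 1.13 ± 0.16 on the log2 scale). *Uhrf1* rose 2.70-fold (log2 fold change 1.43 ± 0.15 (SE), adjusted p = 5.71e-06). The 8 genes not called in the 15 mice were *Orc2*, *Gins4*, *Rfc1*, *Rfc2*, *Pola1*, *Pola2*, *Prim2* and *Ung*.

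*Pold2*, which was level between the WT groups, was called in the *Glis3*-Pax8Cre mice in both fits (log2 fold change 0.37 ± 0.12 (SE), adjusted p = 0.0283 with 16 mice). Its *Glis3*-Pax8Cre(LID) mice, at 21.5 to 30.4 CPM, were all above its *Glis3*-Pax8Cre(ND) mice, at 18.4 to 21.0 CPM. Same-numbered mice of the 2 *Glis3*-Pax8Cre groups deviated together, and once replicate number entered the fit as a block, *Pole* was also called in the 16 mice (log2 fold change 1.14 ± 0.36 (SE), adjusted p = 0.0386). In a blocked fit of the 8 *Glis3*-Pax8Cre mice, *Mcm10*, *Cdc45*, *Pole* and *Rrm2* were called as well (adjusted p = 0.0427, 0.0442, 0.0259 and 0.0374), while *Prim1*, *Pold2*, *Rpa2* and *Tyms* were not (adjusted p = 0.0612, 0.0696, 0.0666 and 0.0631).

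**Figure D3:**
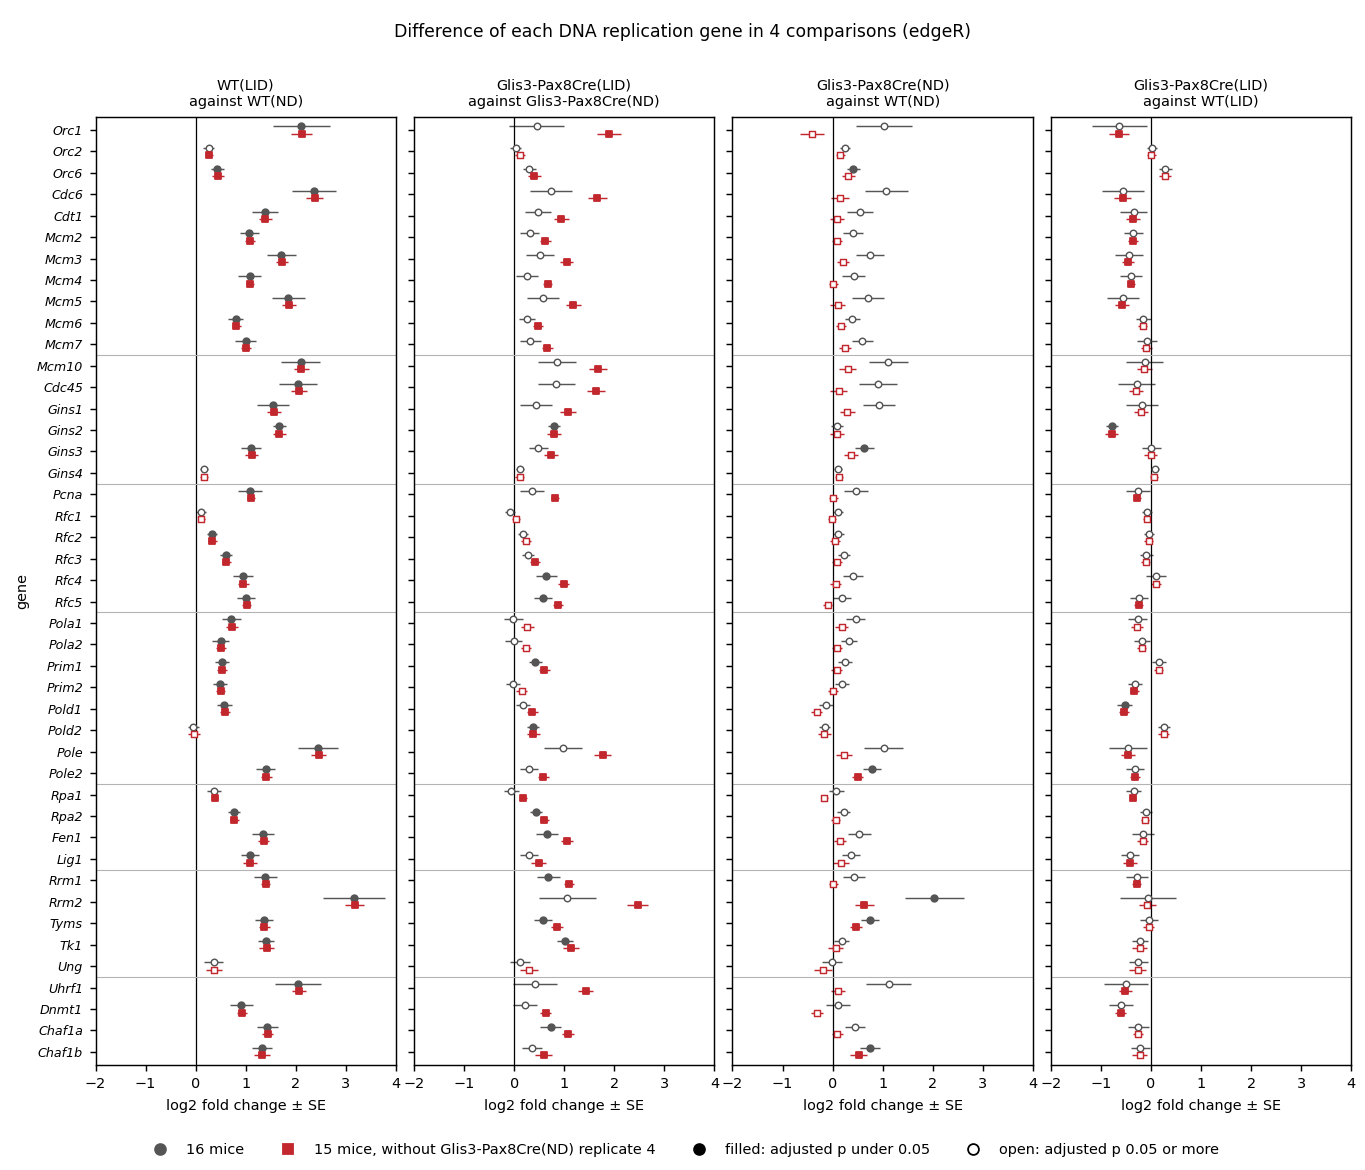
Log2 fold change ± SE of each of the 44 genes (vertical axis) in the 4 comparisons (panels), from the 16 mice (grey circles) and the 15 mice without *Glis3*-Pax8Cre(ND) replicate 4 (red squares); filled symbols have an adjusted p under 0.05. The *Glis3*-Pax8Cre(LID) against *Glis3*-Pax8Cre(ND) panel has 11 filled circles and 36 filled squares, and the SE of most genes is smaller in the 15 mice.

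The third comparison asks whether the genotypes differed in these genes on the ND. In *Glis3*-Pax8Cre(ND) against WT(ND), 6 of the 44 genes were higher (13.6% against 10.3% of all genes) and 0 lower (against 9.25%), with 0 lower at an unadjusted p under 0.05 and 0 by DESeq2. Without replicate 4, 4 genes were higher (9.09% against 11.1% of all genes) and 0 lower (against 8.36%), with 3 lower at an unadjusted p under 0.05. The median log2 fold change over the 44 genes was 0.42 with the 16 mice and 0.09 with the 15. So the share called in the 15 mice was near that of all genes. The count was 3 without WT(ND) replicate 1, 2 or 4, where 1120 to 1132 of all genes were higher. It was 12 without *Glis3*-Pax8Cre(ND) replicate 1 (1682 of all genes) and 17 without *Glis3*-Pax8Cre(ND) replicate 2 (1701 of all genes). A fit of the 8 mice of the comparison alone called 0 (872 of all genes). Beside *Glis3*-Pax8Cre(ND) replicate 4, leaving out *Glis3*-Pax8Cre(ND) replicate 2 or 3 or WT(ND) replicate 4 gave 2, against 6.07% to 8.19% of all genes. The 5 macrophage markers were all called higher in *Glis3*-Pax8Cre(ND), with a sum of 242 to 286 CPM against 147 to 215 CPM in WT(ND). Of the 5 endothelial markers 2 were called higher with the 16 mice and 3 with the 15, and of the 4 B cell markers 1 and 0. Of the 5 fibroblast markers 2 and 0 were called lower, of the 5 adipocyte markers 2 and 1, and of the 2 C cell markers 1 and 2. The part of these cell types in the calls of the replication genes was not tested. The genes called in both fits were *Pole2*, *Rrm2*, *Tyms* and *Chaf1b*. The direction of *Orc1* rested on replicate 4, with 1.03 ± 0.56 in the 16 mice and -0.42 ± 0.24 in the 15, and it was called in neither fit. For *Pole2*, the values given above show *Glis3*-Pax8Cre(ND) replicates 1 to 3 at 3.23 to 3.76 CPM and WT(ND) at 2.27 to 2.64 CPM, with no overlap (log2 fold change 0.50 ± 0.11 (SE), adjusted p = 0.00650 in 15 mice). For *Tyms*, *Glis3*-Pax8Cre(ND) replicates 1 to 3 were at 12.8 to 15.4 CPM and WT(ND) at 9.46 to 11.2 CPM, again with no overlap (log2 fold change 0.47 ± 0.11 (SE), adjusted p = 0.0105 in 15 mice). *Rrm2* differed by 2.03 ± 0.59 with replicate 4 and by 0.63 ± 0.20 without it (adjusted p = 0.0361), and its WT(ND) replicate 2 was just above its *Glis3*-Pax8Cre(ND) replicate 1. *Chaf1b* was at 4.27, 4.72, 6.12 and 5.34 CPM in WT(ND), 6.21, 7.71, 7.81 and 12.5 in *Glis3*-Pax8Cre(ND), 12.6, 12.5, 12.9 and 13.1 in WT(LID) and 7.57, 13.3, 11.2 and 11.99 in *Glis3*-Pax8Cre(LID). All *Glis3*-Pax8Cre(ND) mice were above the WT(ND) mice, replicate 4 most (log2 fold change 0.52 ± 0.17 (SE), adjusted p = 0.0405 in 15 mice). *Orc6* was at 13.8, 15.3, 20.5 and 15.5 CPM in WT(ND), 22.8, 18.9, 19.1 and 25.9 in *Glis3*-Pax8Cre(ND), 22.2, 21.9, 19.4 and 24.6 in WT(LID) and 24.7, 29.01, 24.7 and 28.7 in *Glis3*-Pax8Cre(LID), and *Gins3* at 3.74, 3.29, 2.94 and 2.78 CPM in WT(ND), 3.95, 3.92, 4.42 and 7.39 in *Glis3*-Pax8Cre(ND), 6.62, 6.01, 7.46 and 7.32 in WT(LID) and 5.52, 7.68, 6.98 and 7.38 in *Glis3*-Pax8Cre(LID). Replicate 4 had the highest value of its group in both. They were called with the 16 mice (log2 fold change 0.41 ± 0.13 (SE), adjusted p = 0.0377 for *Orc6* and log2 fold change 0.63 ± 0.19 (SE), adjusted p = 0.0312 for *Gins3*) and not with the 15 (adjusted p = 0.0929 and 0.0775).

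The fourth comparison asks whether the genotypes differed on the LID. It shares the WT(LID) mice with the first comparison and the *Glis3*-Pax8Cre(LID) mice with the second. In *Glis3*-Pax8Cre(LID) against WT(LID), 0 of the 44 genes were higher (against 14.9% of all genes) and 2 lower (4.55% against 15.4%), with 2 higher at an unadjusted p under 0.05 and 0 higher by DESeq2. Without *Glis3*-Pax8Cre(ND) replicate 4, which is in neither group but enters the estimate of the spread, 19 genes were lower (43.2% against 18.9% of all genes) and 0 higher (against 17.1%), with 2 higher at an unadjusted p under 0.05. The median log2 fold change over the 44 genes was -0.25 with the 16 mice and -0.26 with the 15, against 0.01 over all genes. In a fit of the 8 mice of the comparison alone, 17 genes were lower and 1 was higher, against 2926 and 2736 of all 16063 genes. With library size alone in place of TMM, 1 gene was lower and 2 were higher, against 1841 and 4121 of all 16630 genes. This scaling moved the median of all genes to 0.16 and that of the 44 genes to -0.10. For 18 of the 44 genes every *Glis3*-Pax8Cre(LID) mouse was below every WT(LID) mouse, against 17.9% of all genes. *Glis3*-Pax8Cre(LID) replicate 1 was the lowest of its group in 39 of the 44 genes, against 23.5% of all genes. Leaving out a further mouse beside *Glis3*-Pax8Cre(ND) replicate 4 gave 14 to 20 genes lower, with 14 without *Glis3*-Pax8Cre(LID) replicate 1 and 14 without WT(LID) replicate 3. In these fits 15.9% to 19.5% of all genes were lower. Of the 5 endothelial markers 4 were called lower in *Glis3*-Pax8Cre(LID) with the 16 mice and 5 with the 15, with sums of 591 to 754 CPM against 1316 to 1488 CPM in WT(LID). Of the 5 fibroblast markers 1 was called lower with the 16 mice and 2 with the 15, with sums of 265 to 457 CPM against 656 to 763 CPM, and the mean of *Col1a1* within them was 168 against 468 CPM. Their part in the lower level of the replication genes was not tested.

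The 2 genes called lower in the 16 mice were *Gins2* and *Pold1*. *Gins2*, whose GINS partners were not called in this comparison (chr8:120581266-120589075), was at 7.16, 6.72, 6.06 and 8.32 CPM in WT(ND), 6.46, 6.71, 9.23 and 7.64 in *Glis3*-Pax8Cre(ND), 23.7, 22.6, 20.4 and 23.02 in WT(LID) and 10.98, 14.3, 13.7 and 13.4 in *Glis3*-Pax8Cre(LID). Every WT(LID) mouse was at 20.4 CPM or more and every *Glis3*-Pax8Cre(LID) mouse at 14.3 CPM or less, with the difference at -0.78 ± 0.13 on the log2 scale (adjusted p = 0.000257). The 15 mice gave -0.79 ± 0.13 (adjusted p = 0.000187). In *Pold1*, the highest *Glis3*-Pax8Cre(LID) mouse, at 28.8 CPM, was below the lowest WT(LID) mouse, at 35.5 CPM (log2 fold change -0.53 ± 0.15 (SE), adjusted p = 0.0121). The other 17 genes called in the 15 mice were *Orc1*, *Cdc6*, *Cdt1* and *Mcm2* to *Mcm5* of licensing, *Pcna* and *Rfc5* of the clamp and its loader, *Prim2*, *Pole* and *Pole2* of the polymerases, *Rpa1* and *Lig1*, *Rrm1*, and *Uhrf1* and *Dnmt1*. *Mcm5* had log2 fold change -0.58 ± 0.14 (SE), adjusted p = 0.00505, and *Dnmt1* log2 fold change -0.61 ± 0.11 (SE), adjusted p = 0.000395, and both had nearly the same fold change in the 16 mice with a larger SE (-0.57 ± 0.32 and -0.60 ± 0.24). *Uhrf1*, at 33.4 to 56.8 CPM in *Glis3*-Pax8Cre(LID) and 57.1 to 62.1 CPM in WT(LID), differed by -0.52 ± 0.13 (adjusted p = 0.00577 in 15 mice). Fold changes near 0 were found as well. *Rrm2*, with the largest response to the diet, had log2 fold change -0.07 ± 0.18 (SE), adjusted p = 0.784 in the 15 mice, and its groups overlapped. *Tyms* and *Gins3* were likewise not called (-0.05 ± 0.10 and -0.00 ± 0.13).

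**Figure D4:**
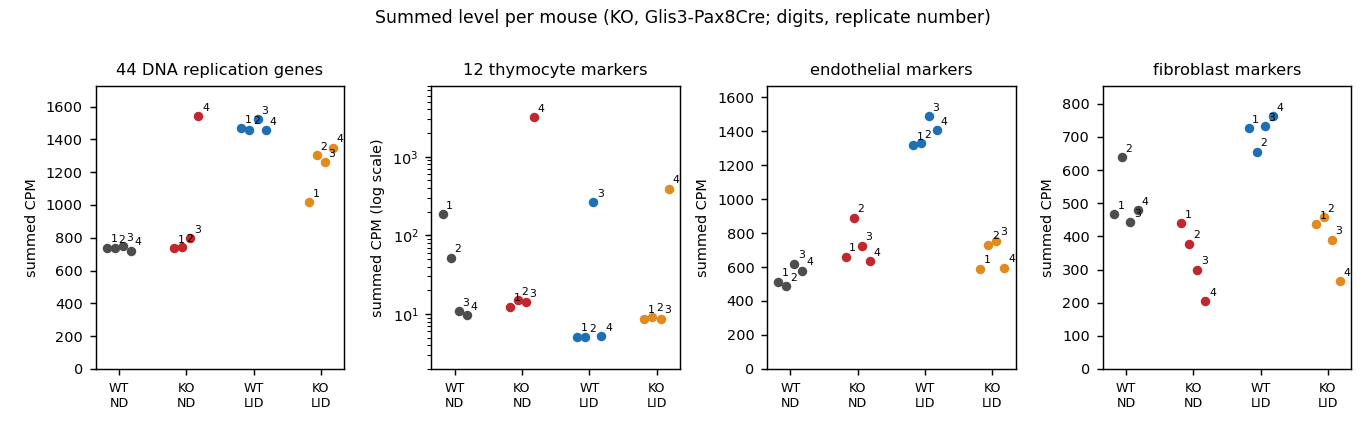
Summed CPM per mouse of the 44 replication genes, 12 thymocyte markers (log axis), 5 endothelial markers and 5 fibroblast markers, by group, with replicate numbers beside the points; KO stands for *Glis3*-Pax8Cre. *Glis3*-Pax8Cre(ND) replicate 4 has the highest sum of replication genes, 1542 CPM, and of thymocyte markers, 3180 CPM, and WT(LID) the highest endothelial sums, 1316 to 1488 CPM.

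The interaction asks whether the diet's effect differed between the genotypes, as the log2 change in *Glis3*-Pax8Cre minus that in WT. With the 16 mice, 3 of the 44 genes were called lower (6.82% against 7.41% of all genes) and 0 higher (against 4.43%), with 1 higher at an unadjusted p under 0.05 and 0 higher by DESeq2. Without *Glis3*-Pax8Cre(ND) replicate 4, 10 genes were lower (22.7% against 9.01% of all genes) and 0 higher (against 4.28%), with 1 higher at an unadjusted p under 0.05. The median was -0.70 with this mouse and -0.34 without it. The count was also 8 without *Glis3*-Pax8Cre(ND) replicate 1 (against 1220 of all 16804 genes) and 7 without replicate 2 (against 1107 of 16771). The 3 genes called in both fits were *Gins2*, *Pole2* and *Chaf1b*. For *Gins2* the interaction was -0.87 ± 0.18 in 16 mice and -0.88 ± 0.19 in 15 (adjusted p = 0.00527 and 0.00529). For *Pole2*, it was -1.10 ± 0.26 and -0.83 ± 0.15 (adjusted p = 0.0116 and 0.00218), and for *Chaf1b*, -0.96 ± 0.28 and -0.74 ± 0.22 (adjusted p = 0.0361 and 0.0412). The log2 change with the diet was thus smaller in *Glis3*-Pax8Cre than in WT mice for all 3. In *Pole2* and *Chaf1b* the ND level was already higher in *Glis3*-Pax8Cre mice, whereas in *Gins2* the ND groups overlapped. The other 7 genes called in the 15 mice were *Mcm2*, *Mcm3*, *Mcm4*, *Mcm5*, *Pole*, *Tyms* and *Uhrf1*, with interactions from -0.69 for *Pole* to -0.41 for *Mcm4*. This count rested on many mice. Beside *Glis3*-Pax8Cre(ND) replicate 4, it was 2 without *Glis3*-Pax8Cre(ND) replicate 3, and 3 without any 1 of the 4 WT(LID) mice or WT(ND) replicate 4. It was 4 without WT(ND) replicate 1 or *Glis3*-Pax8Cre(ND) replicate 2, 5 without WT(ND) replicate 2 and 6 without *Glis3*-Pax8Cre(ND) replicate 1. In these fits 6.71% to 8.34% of all genes were lower. Counts of 2 and 3 are 4.55% and 6.82% of the 44 genes, below the shares of all genes in those fits. A count of 4 is 9.09%, above them. In the remaining fits beside *Glis3*-Pax8Cre(ND) replicate 4, the count was 7 without *Glis3*-Pax8Cre(LID) replicate 1, 2 or 3. It was 9 without *Glis3*-Pax8Cre(LID) replicate 4 or WT(ND) replicate 3. There, 7.9% to 9.82% of all genes were lower. The 5 endothelial markers were all called lower in the interaction too, and their part in it was not tested. *Pold2* had the highest value, 0.42 ± 0.16, and was not called (adjusted p = 0.112).

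Of 48 other replication genes, among them origin firing factors, further polymerase subunits, nucleotide enzymes and histone chaperones, 30 rose in WT(LID) against WT(ND) (62.5% against 20.9% of all genes) and 1 fell (2.08% against 20.8%), with a median log2 fold change of 0.70. *Top2a*, the topoisomerase of dividing cells, rose by 3.09 ± 0.61, from a mean of 18.4 CPM to 156 CPM. *Mki67*, the proliferation marker, rose by 3.06 ± 0.63, and *Clspn*, an adaptor of the replication checkpoint, by 3.01 ± 0.59. *Pclaf*, which binds PCNA, *Ticrr*, which activates origins, *Asf1b*, a histone chaperone, and *Chtf18* and *Dscc1*, of an alternative clamp loader, rose by 2.88, 2.67, 2.55, 2.30 and 2.25 on the log2 scale. In *Glis3*-Pax8Cre(LID) against *Glis3*-Pax8Cre(ND), 8 were higher with the 16 mice (16.7% against 13.1% of all genes) and 33 with the 15 (68.8% against 14.6%). The count of lower genes was 1 with the 16 mice (2.08% against 12.3%) and 0 with the 15 (against 13.8%), with 1 lower at an unadjusted p under 0.05. Between the genotypes on the LID, 5 were higher with the 16 mice (10.4% against 14.9%) and 6 with the 15 (12.5% against 17.1%), and 1 and 4 were lower (2.08% against 15.4% and 8.33% against 18.9%), all shares below those of all genes. On the ND 12 were higher in *Glis3*-Pax8Cre(ND) with the 16 mice (25% against 10.3%) and 4 with the 15 (8.33% against 11.1%). The interaction gave 2 lower with the 16 mice (4.17% against 7.41%) and 3 with the 15 (6.25% against 9.01%).

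Of 20 E2F and RB regulators, 13 rose in WT(LID) (65% against 20.9% of all genes) and 0 fell (against 20.8%), with 0 lower at an unadjusted p under 0.05. *Ccna2*, the S phase cyclin, rose by 3.04 ± 0.49, and the cyclins E, *Ccne1* and *Ccne2*, by 2.30 ± 0.38 and 1.96 ± 0.28. The activator *E2f1* rose by 1.99 ± 0.20 and the repressors *E2f7* and *E2f8* by 2.49 ± 0.22 and 2.51 ± 0.53. *Fbxo5*, an inhibitor of the anaphase-promoting complex, and *Skp2*, a ubiquitin ligase subunit, rose by 1.29 and 1.08. In *Glis3*-Pax8Cre(LID) against *Glis3*-Pax8Cre(ND), 2 were higher with the 16 mice (10% against 13.1%) and 12 with the 15 (60% against 14.6%). Between the genotypes on the LID, 0 were higher with the 16 mice (against 14.9%), also at an unadjusted p under 0.05, and 1 with the 15 (5% against 17.1%). On the same diet 4 were lower with the 16 mice (20% against 15.4%) and 5 with the 15 (25% against 18.9%). On the ND, 5 were higher in *Glis3*-Pax8Cre(ND) with the 16 mice (25% against 10.3%) and 4 with the 15 (20% against 11.1%), and with the 15 mice 1 was lower (5% against 8.36%). *E2f7* was among the higher ones, with a mean over 4 mice of 2.39 CPM in WT(ND) and 8.70 CPM in *Glis3*-Pax8Cre(ND) (log2 fold change 1.80 ± 0.22 (SE), adjusted p = 0.000115 in 15 mice). The interaction gave 3 lower with the 16 mice (15% against 7.41%) and 4 with the 15 (20% against 9.01%). In both fits 0 were higher (against 4.43% and 4.28%), also at an unadjusted p under 0.05.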

How the data were processed

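RNA-Seq was from thyroid glands of 16 mice, 4 in each group. The authors kept read pairs with average base quality over 20 at both ends, aligned them to mm10 with STAR 2.5 and counted fragments per RefSeq gene with featureCounts 1.5.0-p1 without regard to strand, and the deposited values are raw counts of read pairs per gene. Sequencing was on a NextSeq or NovaSeq instrument, which is not given per mouse. The labels of the same group differ by replicate number. The p-values set differences between group means against the spread between mice within groups, estimated from all 4 groups together. The 24 pairs of mice of the same group all differed by more than sampling noise (chi-square per degree of freedom of 33.01 or more). Total counts were 13892352 to 461077969 per mouse, so that 3 counts corresponded to 0.00651 to 0.216 CPM, and shallower mice have the larger counting error.

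The 44 genes, their roles, the other gene lists and the tests were chosen with earlier results of these data known. Counts were filtered with filterByExpr, scaled by TMM and fitted with edgeR 4.0.16 (robust quasi-likelihood test) in R 4.3.3, with the 16 mice of the 4 groups in 1 fit of 16630 genes, and again in 15 mice (16768 genes) without *Glis3*-Pax8Cre(ND) replicate 4. All 44 genes are accounted for, and each mouse's value is printed for the most and least changed gene of each role in WT(LID) against WT(ND), for genes called in a genotype comparison or the interaction with the 16 mice, and for *Mcm2*, *Pcna*, *Rrm2*, *Tk1* and *Uhrf1*. In the 2 other lists, the 8 called genes with the largest change in WT were named, and *E2f7* was named again on the ND after its values were seen. The script was tested on simulated data. Alternatives were RLE or no scaling, DESeq2 1.42.0, other filters on counts, *Tg* left out, the mice of each comparison alone, a replicate block, thymocyte markers as a covariate, an adjusted p under 0.01 with a fold over 2, and each mouse left out. Leaving out the 4 libraries with over 100 CPM of thymocyte markers, and pairs of mice with *Glis3*-Pax8Cre(ND) replicate 4, was added after the data were seen. Same-numbered mice of the 2 *Glis3*-Pax8Cre groups deviated together over all genes (r = 0.212 to 0.648 for the 4 pairs), so the blocked values of that comparison are given. In no other pair of groups did all 4 pairs exceed 0.1. Whether same-numbered mice shared a day or litter is not given in the sources used here. Differently numbered mice of 2 groups were not compared. In both *Glis3*-Pax8Cre groups, replicate 4 held thymocyte markers (3180 CPM on the ND and 394 CPM on the LID). Replicate 3 had the lowest sum of skeletal muscle markers in each (1.60 and 2.56 CPM). The part of such tissue in the shared deviation was not tested.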

Additional observations from a re-analysis of the deposited data

Results flagged for a closer look

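A mouse is listed here where its gap to the nearest other mouse of its group as a share of the whole range of the group passed Dixon's 95% limit for 4 values. Chance flags about 1 in 20 groups, and 44 genes were looked at in each of 4 groups. *Glis3*-Pax8Cre(ND) replicate 4 was the highest of its group in this sense for 27 genes. For licensing the gap as a share of the range was 0.926 for *Orc1*, 0.925 for *Cdc6*, 0.921 for *Cdt1*, 0.941 for *Mcm2*, 0.944 for *Mcm3*, 0.920 for *Mcm4*, 0.892 for *Mcm5* and 0.869 for *Mcm7*. For helicase activation it was 0.949 for *Mcm10*, 0.945 for *Cdc45*, 0.903 for *Gins1* and 0.856 for *Gins3*. For the clamp and its loader it was 0.893 for *Pcna*, 0.866 for *Rfc4* and 0.986 for *Rfc5*. For the polymerases it was 0.911 for *Pola2*, 0.925 for *Prim2*, 0.888 for *Pole* and 0.844 for *Pole2*, and for fork proteins 0.978 for *Rpa1*, 0.830 for *Rpa2* and 0.885 for *Fen1*. It was 0.960 for *Rrm1* and 0.954 for *Rrm2*, and 0.964 for *Uhrf1*, 0.896 for *Dnmt1* and 0.976 for *Chaf1a*. This mouse also held 3180 CPM of thymocyte markers, whose part was not tested.

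*Glis3*-Pax8Cre(LID) replicate 1 was the lowest of its group for *Cdc45* (0.844), *Rpa1* (0.831), *Rrm1* (0.863) and *Chaf1a* (0.842), and *Glis3*-Pax8Cre(LID) replicate 2 for *Orc2* (0.863). In WT(ND), replicate 4 was the lowest for *Mcm4* (0.918), replicate 2 the highest for *Gins1* (0.929), and replicate 3 the highest for *Rfc4* (0.851) and the lowest for *Pole* (0.850). In WT(LID), replicate 3 was the highest for *Prim2* (0.879) and *Dnmt1* (0.921).

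The effect of the LID differed between the genotypes by the test of the interaction in the 16 mice for *Gins2* (log2 difference -0.87), *Pole2* (-1.10) and *Chaf1b* (-0.96).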

How the results depend on the processing

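In WT mice, 37 to 40 genes rose when any 1 mouse was left out, and 25 did at an adjusted p under 0.01 with a fold over 2. Over all genes, 3060 to 4032 rose with any 1 mouse left out. No count over all genes was made at this stricter threshold, so its counts here and below have no background share. In *Glis3*-Pax8Cre mice 11 genes rose with the LID, with a range of 2 to 36 over mice left out, 2 with library size alone or in the mice of the comparison alone, 31 with thymocyte markers as a covariate, 31 without the 4 libraries over 100 CPM of these markers and 1 under the stricter threshold. Over all genes, 2184 rose, with 1747 to 2446 over mice left out and 1297 with library size alone. In the mice of the comparison alone 1321 rose, with the covariate 2436 and without the 4 libraries 2060. On the ND, the 6 genes higher in *Glis3*-Pax8Cre became 3 to 17 over mice left out, 12 with library size alone, 12 with DESeq2, 0 in the mice of the comparison alone, 1 without the 4 libraries and 0 under the stricter threshold. Over all genes, 1714 became 1120 to 2003 over mice left out, 2722 with library size alone and 2259 with DESeq2. In the mice of the comparison alone 872 were higher, and without the 4 libraries 1145. On the LID, 0 genes higher became 0 to 1 over mice left out, 2 with library size alone and 1 in the mice of the comparison alone. Over all genes, 2471 became 1792 to 2859, 4121 and 2736 in the same order. The 2 genes lower on the LID became 2 to 19 over mice left out, 1 with library size alone, 17 in the mice of the comparison alone, 11 with the covariate, 11 without the 4 libraries and 0 under the stricter threshold. Over all genes, 2557 became 2168 to 3176, 1841, 2926, 2873 and 2334 in the same order, the stricter threshold aside. The 3 genes of the interaction became 2 to 10 over mice left out, 12 with DESeq2, 5 with at least 10 counts in every mouse, 14 with the covariate, 5 without the 4 libraries and 0 under the stricter threshold. Over all genes, 1232 lower ones became 963 to 1511, 1674, 1249, 1562 and 989 in the same order, again without the stricter threshold. With the replicate number as a replicate block and 16 mice, 3 genes were higher on the ND, 4 were lower on the LID and 4 were lower in the interaction. Over all genes the block gave 1578, 2545 and 1208. Same-numbered mice did not deviate together between the 2 ND, the 2 WT or the 2 LID groups (r of -0.521 to 0.140). The interaction also holds the 2 *Glis3*-Pax8Cre groups, whose same-numbered mice did (r = 0.212 to 0.648). Between the *Glis3*-Pax8Cre groups the block gave 12 genes higher with 16 mice and 11 with 8, against 2108 and 1545 of all genes. The difference of *Rpa1* between the *Glis3*-Pax8Cre groups was -0.06 and ranged from -0.13 to 0.19 over mice left out, with the highest value, which was called, without *Glis3*-Pax8Cre(ND) replicate 4. No other called value of a named gene turned its direction under these alternatives. Over single genes and alternatives, 235 results came to pass the threshold and 121 ceased to. Of those that kept their side of it, 145 that passed it in neither fit moved by at least their SE. The other 5198 passed it in both fits, or in neither with a smaller move. The causes were not tested. With library size alone the genes called higher and lower over all genes were 2434 and 5203 in WT (3476 and 3467 with TMM), 1297 and 3385 in *Glis3*-Pax8Cre (2184 and 2039), 2722 and 935 on the ND (1714 and 1538) and 4121 and 1841 on the LID (2471 and 2557), with the median of all genes at -0.18, -0.17, 0.14 and 0.16. With 4 mice a group, differences near the size of their SE could not be shown, and the spread between mice includes differences in depth and in the tissue taken.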
